A study of Mus musculus with 10 samples.

Results

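The genes described here encode the enzymes that make, interconvert and break down serine and glycine: Phgdh, Psat1, Psph, Shmt1, Shmt2, Gldc, Amt, Gcsh, Srr and Dao. Their members were every probe set (a group of short oligonucleotides on the array that reads 1 transcript) that had a value in all 10 cells and that the array annotation assigned to exactly 1 gene, that gene being in the list. This gave 24 probe sets of the 43608 with complete values, and they covered 9 of the 10 genes. Amt, which encodes the aminomethyltransferase of the glycine cleavage system, had no probe set of its own in the annotation and is only accounted for. Phgdh had 4 probe sets, Psat1 2, Shmt1 4, Shmt2 4, Srr 6, and Psph, Gldc, Gcsh and Dao 1 each. A further 2 probe sets were assigned to Phgdh together with a predicted gene, Gm8096 or Gm6756, and were kept out of the counts.

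The study compared 5 single Bergmann glia from postnatal day 6 (P6) with 5 from postnatal day 30 (P30), each amplified by PCR and hybridized to its own Mouse Genome 430 2.0 array. All cells of both ages came from the mid-sagittal cerebellum of the GFAP-GFP reporter line, in which the Gfap promoter drives green fluorescent protein, and the study picked them by fluorescence and shape and kept those in which PCR and blots found astroglial but not neuronal transcripts. No label ties the cells to animals. Each age was therefore treated as 1 sample, the ages could not be tested against each other, and every SD below describes the spread among 5 cells. The deposited values are ratios, and in nearly all probe sets the data show the divisor as a median over all or some of the P6 cells, so that a ratio shows how a cell stands against typical P6 cells and not how abundant a transcript was. The 5 P6 cells had a median of 1 in 21 of the 24 probe sets, and the 3 others, all of Srr, had P6 medians of 0.859 (1419664_at), 0.559 (1453421_at) and 0.845 (1458393_at). Genes were therefore not ranked by level.

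De novo serine synthesis starts from 3-phosphoglycerate, an intermediate of glycolysis, which Phgdh oxidizes, Psat1 transaminates and Psph dephosphorylates to L-serine. Serine hydroxymethyltransferases turn serine into glycine while loading a carbon unit onto folate, the mitochondrial glycine cleavage system takes glycine apart, and serine racemase makes D-serine, a co-agonist of NMDA receptors that D-amino acid oxidase degrades. In the brain, serine synthesis is known mainly as a task of astroglia, and D-amino acid oxidase is known for its high activity in the cerebellum.

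Of the 24 probe sets, 4 had means more than 3-fold higher in P6 cells, 2 had means more than 3-fold higher in P30 cells and 18 lay within 3-fold. The same shares over all probe sets with complete values were 11.1% toward P6 and 6.6% toward P30, which for 24 probe sets is close to what was counted. The 4 higher at P6 were 3 probe sets of Shmt2 and 1 of Srr, and the 2 higher at P30 were those of Dao and 1 of Shmt1. In 1 probe set, that of Dao, the cells of the ages did not overlap, with all P30 cells on top, against 2.99% of all probe sets (1.2% with all P30 cells on top and 1.79% with all P6 cells on top). Irrespective of size, 13 of 24 had the higher mean at P6, against 50.6% of all probe sets. The differences of the log2 means, taken as P6 minus P30, had a median of 0.27 in the 24 probe sets and of 0.01 in all probe sets. Averaged over probe sets, 1 gene of 9 (Shmt2) was over 3-fold higher at P6 and 1 (Dao) at P30, where 9.39% and 4.93% of all 17919 genes were, and 7 lay within 3-fold.

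**Figure D1:**
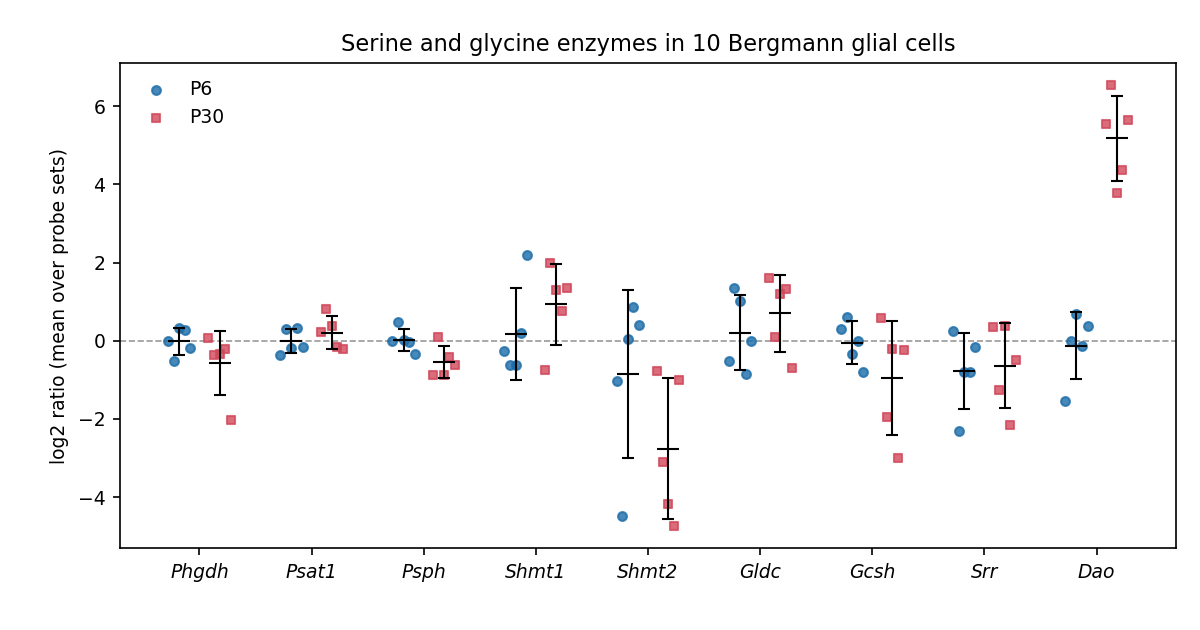
Ratio of each of the 9 genes in each cell on a log2 scale (y axis, mean over the gene's probe sets), with P6 cells as blue circles, P30 cells as red squares and black bars for the mean ± SD of 5 cells. The P30 cells of Dao lie above 3.7 and all its P6 cells below 0.7, while the cells of the 2 ages overlap for the other 8 genes.

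Promoter windows are shown for Dao, the gene that set the ages apart, and for Phgdh and Psph, enzymes of serine synthesis whose windows held a searched motif. Each runs 5′ to 3′ on the gene's strand from 250 bases before to 50 bases after a RefSeq start on GRCm38.p6, and capitals mark the motif. Dao had 3 such windows, of which the first (chr5:114003485-114003784, plus strand) and the third (chr5:114004558-114004857, plus strand) are printed because the second overlaps the first. The Phgdh window is chr3:98339920-98340219 and the Psph window chr5:129787204-129787503, both on the minus strand.
Dao start 1: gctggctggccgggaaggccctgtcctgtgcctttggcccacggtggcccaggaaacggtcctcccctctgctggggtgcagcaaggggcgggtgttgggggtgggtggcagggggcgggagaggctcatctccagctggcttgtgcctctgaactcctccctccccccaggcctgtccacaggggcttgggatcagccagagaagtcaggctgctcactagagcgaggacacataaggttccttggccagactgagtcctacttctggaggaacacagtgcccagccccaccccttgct
Dao start 3: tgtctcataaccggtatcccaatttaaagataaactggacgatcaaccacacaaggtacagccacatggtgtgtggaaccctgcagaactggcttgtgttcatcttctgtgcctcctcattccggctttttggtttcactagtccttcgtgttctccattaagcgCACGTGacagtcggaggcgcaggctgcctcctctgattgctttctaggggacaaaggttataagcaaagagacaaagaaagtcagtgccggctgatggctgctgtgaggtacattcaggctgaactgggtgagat
Phgdh: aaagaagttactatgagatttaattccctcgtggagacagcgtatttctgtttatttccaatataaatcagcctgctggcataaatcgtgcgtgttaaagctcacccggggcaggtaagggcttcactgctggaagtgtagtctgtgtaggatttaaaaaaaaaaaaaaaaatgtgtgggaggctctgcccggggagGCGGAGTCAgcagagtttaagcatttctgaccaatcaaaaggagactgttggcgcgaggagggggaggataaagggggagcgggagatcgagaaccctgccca
Psph: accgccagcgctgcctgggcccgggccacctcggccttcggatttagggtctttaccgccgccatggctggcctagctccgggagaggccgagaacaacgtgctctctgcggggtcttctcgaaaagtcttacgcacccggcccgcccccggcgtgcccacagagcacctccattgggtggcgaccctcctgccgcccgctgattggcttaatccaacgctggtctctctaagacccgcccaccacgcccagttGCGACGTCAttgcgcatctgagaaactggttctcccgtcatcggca

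All 10 genes, Amt included, had a window, 13 in all, and 3 motifs were searched on both strands. The letters TGATGNAA, the element bound by ATF4 and C/EBP factors, were in 0 of the 13 windows and in 3.97% of 32851 windows of all genes. The E-box CACGTG was in 1 window, 85 bases before the third Dao start, and in 7.15% of all windows. The antioxidant response element TGACNNNGC was in 12.4% of all windows and in those of Phgdh (TGACTCCGC, 53 bases before the start), Psph (TGACGTCGC, 4 bases after the start) and Amt (TGACAATGC, 26 bases after the start), on the opposite strand in Phgdh and Psph, where the capitals show its reverse complement. These matches describe the letters only.

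The enzymes of serine synthesis differed little between the ages. Phgdh, 3-phosphoglycerate dehydrogenase, which catalyses the committed step, had ratios of 1, 0.703, 1.26, 1.21 and 0.876 in P6 replicates 1 to 5 and of 1.06, 0.781, 0.786, 0.860 and 0.247 in P30 replicates 1 to 5, as means over its 4 probe sets. A single P30 cell was low and the other 4 lay within the P6 range. The P6 cells had a log2 mean of -0.02 ± 0.35 and the P30 cells one of -0.57 ± 0.83 (SD, n = 5 cells each), a difference of 0.55, which fell to 0.19 without P30 replicate 5. The 4 probe sets ordered the cells almost alike, with Pearson's r between 0.92 and 1.00 over 10 cells after the mean of each age was taken off, and their differences ran from 0.43 to 0.71. All 4 carry the suffix _x_at, which marks probes that can also bind other sequences, and the 2 probe sets shared with Gm8096 and Gm6756 differed by 0.58 and 0.46.

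Psat1, phosphoserine aminotransferase, had ratios of 0.776, 1.24, 0.882, 1.26 and 0.902 at P6 and of 1.16, 1.75, 1.30, 0.903 and 0.865 at P30. The ages overlapped, and the log2 means of -0.01 ± 0.31 and 0.21 ± 0.41 (SD, n = 5 cells each) differed by 0.22 toward P30 in both probe sets, a direction that scaling the arrays to their hybridisation spikes turned (0.06 toward P6). Psph, phosphoserine phosphatase, which releases L-serine, had ratios of 1, 1.39, 1.01, 0.978 and 0.793 at P6 and of 0.544, 1.07, 0.548, 0.743 and 0.649 at P30. Here 4 of 5 P30 cells lay below every P6 cell and P30 replicate 2 lay among them, so that the log2 means of 0.02 ± 0.29 and -0.54 ± 0.40 (SD, n = 5 cells each) differed by 0.57, or 1.48-fold. These 2 genes were among the steadiest on the array from cell to cell. Of all genes, 2.14% had a smaller pooled SD than Psph and 2.72% a smaller one than Psat1, while for Phgdh the share was 19.3%.

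The gene means of the serine hydroxymethyltransferases leaned opposite ways, for Shmt1 by less than either SD and without agreement among its probe sets. Shmt2, the mitochondrial enzyme, had ratios of 0.486, 0.0450, 1.03, 1.81 and 1.32 at P6 and of 0.583, 0.116, 0.0557, 0.0375 and 0.502 at P30, as means over 4 probe sets. No P30 cell reached 3 of the P6 cells, but P6 replicate 2 was as low as the lowest P30 cells and P30 replicates 1 and 5 were above P6 replicate 1. The log2 means of -0.84 ± 2.15 and -2.76 ± 1.81 (SD, n = 5 cells each) put Shmt2 at least 3.77-fold higher at P6, a difference of 1.91 that the spread within either age exceeded or nearly equalled. It rose to 2.82 without P6 replicate 2 and lay under the 3-fold line (1.58) without P30 replicate 4 (1.42), P6 replicate 4 (1.49) or P30 replicate 3 (1.56) and with a floor of 0.1 (1.52). Of 17919 genes, 6.73% had a larger difference toward P6. The fold is a lower bound because 2 P30 values of 1 probe set stood at 0.01, the lowest value above 0 in the table.

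All 4 Shmt2 probe sets had the higher mean at P6, with differences from 1.08 to 2.78 and with r from 0.78 to 0.97 over 10 cells after the age means were taken off. In 1455985_x_at, the probe set with the largest of these differences, the P6 ratios were 0.429, 0.0279, 1.11, 1.19 and 1 and the P30 ratios 0.585, 0.0380, 0.01, 0.01 and 0.472. The cells thus fell into high and low ones at both ages, with 1 low cell at P6 and 3 at P30. Its difference of 2.78 was 2.11 without P30 replicate 3 or 4, and 3.77, 3.58 or 3.50 without P6 replicate 2, P30 replicate 1 or P30 replicate 5. The only Shmt2 probe set without an _x_at suffix, 1426423_at, had P6 ratios of 0.217, 0.0176, 1.03, 1.71 and 1 and P30 ratios of 0.150, 0.0895, 0.101, 0.0487 and 0.233, and was 3.37-fold higher at P6. Its log2 difference of 1.75 fell under 3-fold without P6 replicate 3 (1.38), 4 (1.20) or 5 (1.39) or P30 replicate 4 (1.46) and was 2.85 without P6 replicate 2. Of 9177 genes with 1 probe set, the 3 most like 1455985_x_at over the 10 cells were Mta2 (r = 0.97), Sema4g (r = 0.93) and Asnsd1 (r = 0.93), and 5 had r over 0.9. The age means were left in for these r, and the 3 genes also differed toward P6, by 3.17, 2.05 and 2.36. The difference between the ages is thus part of the likeness. The 10 points of each r share the scaling of the arrays.

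Shmt1, the cytosolic enzyme, had mean ratios of 0.827, 0.648, 0.653, 1.14 and 4.56 at P6 and of 0.594, 4.00, 2.45, 1.69 and 2.55 at P30. The log2 means of 0.17 ± 1.18 and 0.93 ± 1.04 (SD, n = 5 cells each) differed by 0.76 toward P30, less than either SD. Its 4 probe sets did not give 1 answer. In 1425177_at the P6 ratios were 0.712, 0.478, 1.51, 1 and 1.86 and the P30 ratios 0.654, 23.8, 21.3, 2.17 and 12.8, so that 4 of 5 P30 cells lay above all P6 cells and the mean was 6.27-fold higher at P30, a log2 difference of -2.65 that was -3.46 without P30 replicate 1. In the other 3 probe sets the log2 difference lay between -0.39 and 0.11. In 1425179_at, P6 replicate 5 stood at 121.9 while the other P6 cells lay between 0.358 and 1.48, and without that cell its log2 difference of -0.10 became -1.58. The r between Shmt1 probe sets ran from 0.28 to 0.74.

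**Figure D2:**
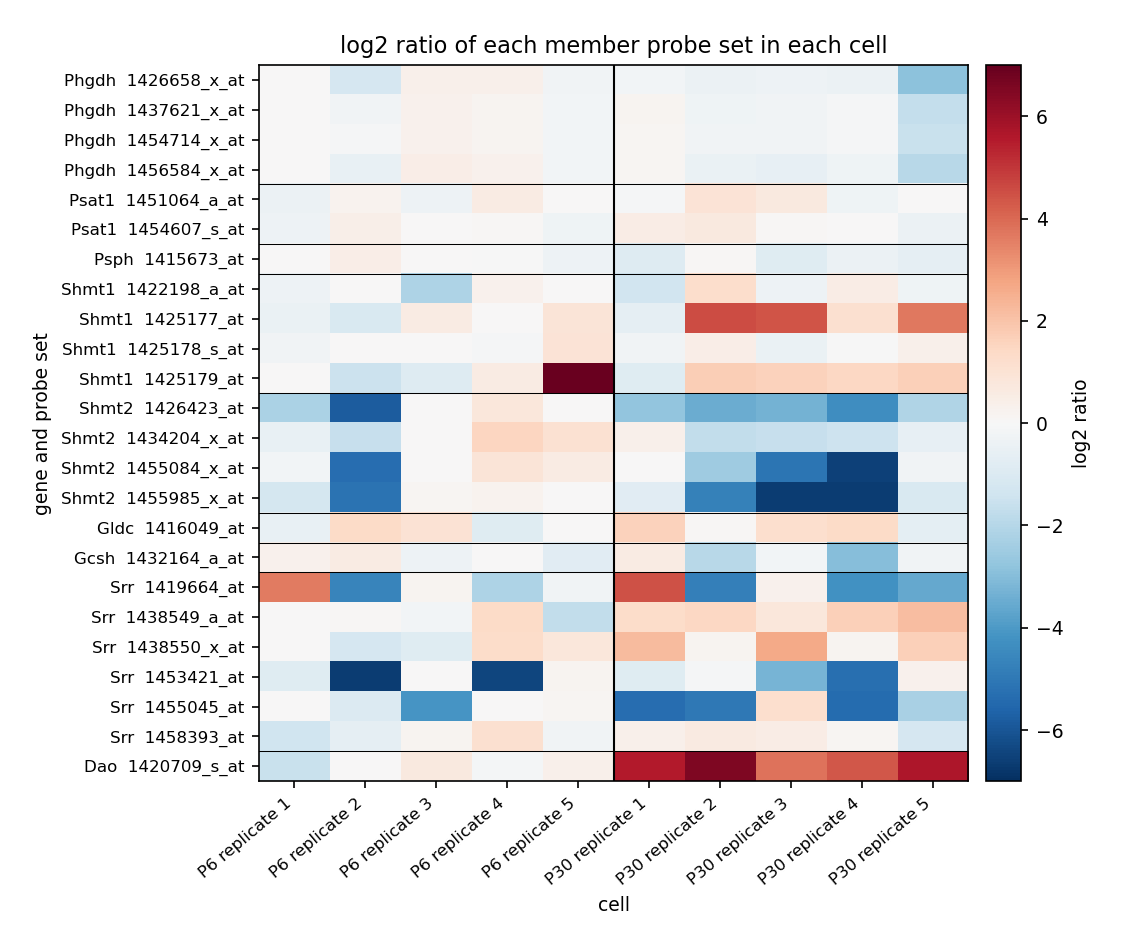
The log2 ratio (colour scale, red above and blue below the typical P6 cell) of each of the 24 probe sets (rows, grouped by gene) in each of the 10 cells (columns, P6 left of the vertical line). The Phgdh rows share a low value in P30 replicate 5, the Shmt2 rows share low values in P6 replicate 2 and P30 replicates 2 to 4, the Srr rows differ from each other, and the Dao row is high in all 5 P30 cells.

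The measured genes of the glycine cleavage system lay within 3-fold. Gldc, the decarboxylase that opens glycine, had ratios of 0.701, 2.54, 2.04, 0.552 and 1 at P6 and of 3.05, 1.06, 2.29, 2.50 and 0.612 at P30. Both ages spanned a similar range, and the log2 means of 0.20 ± 0.96 and 0.70 ± 0.98 (SD, n = 5 cells each) differed by 0.50 toward P30. Gcsh, the lipoyl carrier protein that shuttles the aminomethyl group, had ratios of 1.24, 1.52, 0.789, 1 and 0.577 at P6 and of 1.49, 0.261, 0.862, 0.126 and 0.843 at P30. The P30 cells 2 and 4 were low and the other 3 lay within the P6 range, so that the log2 means of -0.05 ± 0.55 and -0.96 ± 1.46 (SD, n = 5 cells each) differed by 0.92. Without P30 replicate 4 the difference was 0.41. Across the 10 cells with the age means taken off, Gldc and Gcsh had r = 0.05.

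Srr, serine racemase, which forms D-serine from L-serine, could not be given 1 direction. As means over 6 probe sets its ratios were 1.18, 0.200, 0.576, 0.572 and 0.888 at P6 and 1.28, 0.416, 1.29, 0.223 and 0.715 at P30, and the log2 means of -0.77 ± 0.97 and -0.64 ± 1.09 (SD, n = 5 cells each) differed by 0.13. Of the 6 probe sets, 2 leaned toward P6 and 4 toward P30, and the r between them ran from -0.46 to 0.65 over 15 pairs. The largest difference toward P6, 2.39, was in 1455045_at, with ratios of 1, 0.518, 0.0571, 1.03 and 1.12 at P6 and of 0.0250, 0.0307, 2.25, 0.0242 and 0.204 at P30. It was 3.18 without P6 replicate 3, 3.53 without P30 replicate 3, 1.41 with a floor of 0.1 and 0.56 with arithmetic means. The largest toward P30, 1.57, was in 1438549_a_at, with ratios of 1, 1.08, 0.881, 2.50 and 0.301 at P6 and of 2.45, 2.76, 1.74, 3.12 and 4.50 at P30, where P6 replicate 4 alone reached into the P30 range. Another probe set, 1419664_at, ran from 0.0411 to 12.5 at P6 and from 0.0358 to 22.1 at P30, and 98.9% of all probe sets had a smaller pooled SD.

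Dao, D-amino acid oxidase, stood apart from the other 8 genes. Its ratios were 0.344, 1, 1.60, 0.912 and 1.29 in P6 replicates 1 to 5 and 46.2, 92.9, 13.7, 20.7 and 50.3 in P30 replicates 1 to 5. Every P30 cell was above every P6 cell, and the lowest P30 cell was still well above the highest P6 cell. The log2 means of -0.13 ± 0.85 and 5.17 ± 1.10 (SD, n = 5 cells each) made Dao 39.4-fold higher at P30, and the difference of -5.30, P6 minus P30, ran from -5.65 to -4.95 with any 1 cell left out. Of 17919 genes, 23 (0.128%) had a larger difference toward P30. Dao was read by a single probe set with the suffix _s_at, which marks probes that can match several transcripts, and the study had itself picked this gene as higher at P30 in these cells, so the direction is not independent evidence. The study also flagged this probe set absent in most P6 cells. The 39.4-fold is thus a ratio to P6 signal called absent and should not be read as an exact size. Of the 9177 genes with 1 probe set, the 3 most like Dao over the 10 cells were 1700047M11Rik (r = 0.96), Lgi4 (r = 0.95) and Igkv6-15 (r = 0.93), and 13 had r over 0.9. For these the difference between the ages makes up much of the likeness.

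**Figure D3:**
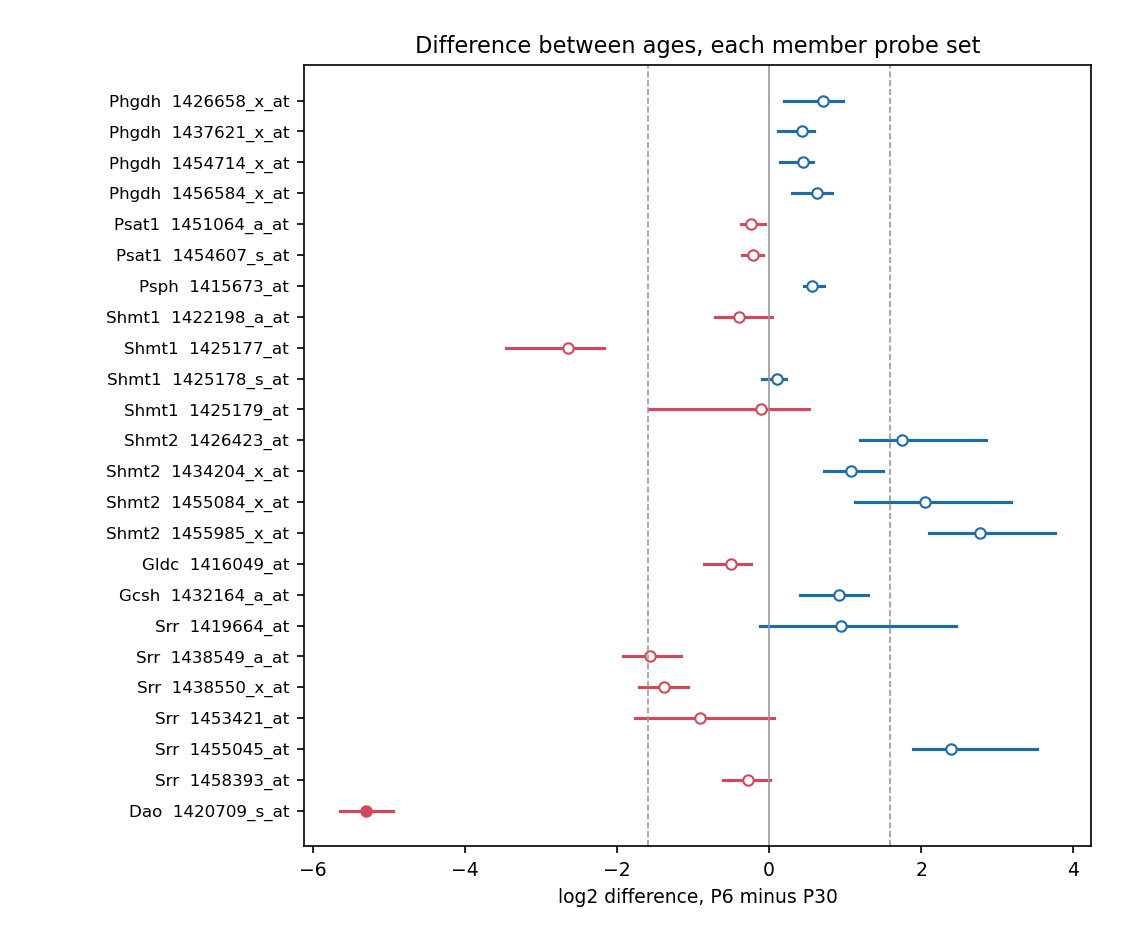
Difference of the mean log2 ratios, P6 minus P30 (x axis), of each of the 24 probe sets (rows), with a line for the range when any 1 cell is left out, blue for higher at P6 and red for higher at P30, dashed lines at 3-fold, and a filled circle where the cells of the ages do not overlap. Dao at -5.30 is the only filled circle, the 4 Shmt2 probe sets are all right of 0, and the 6 Srr probe sets lie on both sides.

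Correlations between the genes from cell to cell were mixed in sign. With the mean of each age taken off, r over 10 cells between gene means ran from -0.75 for Psph with Srr to 0.62 for Shmt2 with Srr. Of the serine synthesis enzymes, Psat1 and Psph had r = 0.49 and Phgdh had r = 0.29 with Psat1 and r = -0.10 with Psph. Srr had r = -0.24 with Dao, the enzyme that breaks down its product. These values share the scaling of each array and rest on probe sets that disagreed within Srr and Shmt1.

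P30 replicate 5, the cell low in Phgdh, also stood apart in marker genes. In it 9 of 10 measured endothelial and pericyte markers were above the other P30 cells, by a median of 3.46 on the log2 scale, and the medians were 3.30 for Purkinje neuron markers (3 of 6 above), 0.55 for general neuronal (4 of 13 above), -0.83 for astroglial and -0.87 for Bergmann glial markers. The summed ratio of the endothelial markers ran from 8.64 to 70.2 over P6 cells and from 9.41 to 228 over P30 cells, and that of the 7 Bergmann glial markers from 6.67 to 21.6 and from 44.4 to 91.7. The latter sums rested on few genes, since 1 of the 7 was over 3-fold higher at P30 and their median difference was -0.31. The whole array of P30 replicate 5 was also low, with a median log2 ratio of -0.46 against -0.13 to -0.10 in the other P30 cells and a mean over 18 spike probe sets of -0.41 against 0.28 to 0.46. As ratios, the markers show shifts between cells and not whether a marker was expressed, so the labelled cell type could not be checked by level from them. The study itself looked at mean marker levels on these arrays. It reported robust astroglial genes, and markers of neurons, oligodendrocytes and microglia that were absent or extremely low. P6 replicate 5 had neuronal markers higher by a median of 1.60. Its array was low as well, with a spike mean of -0.47 against -0.06 to 0.14 in the other P6 cells. Its median log2 ratio was -0.14 against -0.005 to 0 in those cells. Whether other cell types or the shift of the array had a part in the low Phgdh of P30 replicate 5 was not tested, and Dao stood at 50.3 in that cell, within the range of the other P30 cells.

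Genes around the pathway were described from 7 lists with 78 genes, 70 of them measured. Over 3-fold differences toward P6 were found in 9 (9.39% of all genes were past 3-fold that way) and toward P30 in another 9 (4.93%), and the median difference was 0.06. These all-gene shares are the background for each list below. Under both scalings and a floor of 0.1, the count toward P6 ran from 9 to 10 and that toward P30 from 6 to 10. The cells of the ages did not overlap in 5, against 3.54% of all genes, with P6 on top in 3 (2.13% of all genes) and P30 on top in 2 (1.41%). The partners of glycine cleavage were higher at P6 in 4 of 4 genes, with a median of 2.12, against 52.4% of all genes. Lias, which makes the lipoyl group carried by Gcsh, had ratios from 0.647 to 1.17 at P6 and of 2.24, 0.0498, 0.0584, 0.0189 and 0.0507 at P30, and was 10.2-fold higher at P6, a log2 difference of 3.35 that was 4.50 without P30 replicate 1 and 2.32 with a floor of 0.1. P30 replicate 1 was thus the highest of all 10 cells and the other 4 were far below every P6 cell. Lipt2, a lipoyl transferase, was 10.1-fold higher at P6 but its cells overlapped, with 0.0478 and 0.0592 in the lowest P6 cells and 0.0180 to 0.208 at P30, and its log2 difference of 3.33 ran from 2.18 without P6 replicate 4 to 4.40 without P6 replicate 2, with P6 replicates 3 (2.44) and 5 (4.32) and P30 replicate 4 (2.74) also moving the fold by over 1.5 times. Dld, the dehydrogenase that reoxidizes the lipoyl group, differed by 0.35, and by 0.05 to 0.74 with 1 cell left out. Lipt1, named after its value was seen, differed by 0.91. The list median of 2.12 thus falls between the values of Lipt1 and Lipt2, and a list of 4 genes is small.

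Among folate enzymes, 2 of 15 measured genes were over 3-fold higher at P6 (against 9.39% of all genes) and none at P30, with a median of 0.50. A count of 2 is near that background. Mthfd1, the cytosolic trifunctional enzyme that interconverts folate carbon units, had ratios of 0.908, 2.97, 1.01, 0.756 and 0.978 at P6 and of 0.0741, 0.653, 0.326, 0.0484 and 0.467 at P30. All P6 cells lay above all P30 cells, and the fold was at least 5.63. Aldh1l2, the mitochondrial formyltetrahydrofolate dehydrogenase, exceeded its P30 mean at least 14.3-fold at P6, though its cells overlapped, between 0.0371 and 6.88 at P6 and between 0.01 and 0.118 at P30. Its log2 difference of 3.84 rested on few cells and low values, being 2.85 without P6 replicate 2, 4.48 without P6 replicate 1, 4.73 without P6 replicate 5 and 2.48 with a floor of 0.1. Its cytosolic relative Aldh1l1, an astroglial marker, differed by 0.76 toward P6.

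The list of other enzymes around serine and glycine had 6 of 17 over 3-fold higher at P30 (against 4.93% of all genes), 1 at P6 (against 9.39%) and a median of -0.49. Not all of them use or make serine or glycine themselves. Of those counted, Ddo oxidizes D-aspartate and Gamt takes the later step of creatine synthesis. Pipox, a peroxisomal oxidase of pipecolate and sarcosine, had ratios of 0.866, 0.979, 1.02, 3.37 and 0.378 at P6 and of 136.5, 4.84, 73.7, 5.71 and 8.28 at P30. It was 18.4-fold higher at P30 with every P30 cell above every P6 cell, and its log2 difference of -4.20 was -3.48 without P30 replicate 1. Gatm and Gamt, which carry out successive steps of creatine synthesis from glycine, went opposite ways, Gatm being 5.84-fold higher at P30 and Gamt 11.4-fold higher at P6, both with overlapping cells. Gatm differed by -2.55 on the log2 scale, by -3.37, -3.19 or -3.16 without P6 replicate 5, P30 replicate 1 or P30 replicate 3, and by -1.87 without P30 replicate 4. Gamt differed by 3.52 and by 2.92 without P6 replicate 4. Sardh (5.72-fold), Ddo (5.47-fold), Agxt2 (3.36-fold) and Gnmt (3.18-fold) were also higher at P30 and are named here after their values were seen. Without P6 replicate 5 the Sardh difference of -2.52 was -1.71, and without P6 replicate 1 that of Ddo, -2.45, was -3.04. Agxt2 fell under 3-fold without P6 replicate 1 (-1.56) or 2 (-1.48), and Gnmt with any of 7 cells left out (-1.55 to -1.28) but not without P6 replicate 3 or 4 or P30 replicate 5. With spike scaling Agxt2 (-1.47) and Gnmt (-1.39) were also under 3-fold. Ddo, the D-aspartate oxidase related to Dao, had ratios from 0.329 to 4.54 at P6 and from 2.25 to 15.8 at P30. Cbs, which joins serine to homocysteine, differed by 0.79 toward P6.

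Of 14 transporters, 1 passed 3-fold toward P6 and 2 toward P30, counts near the background of 9.39% and 4.93%, with a median of -0.11. Slc38a2, a sodium-coupled carrier of small neutral amino acids, had ratios of 1.04, 0.601, 1.95, 0.515 and 1.11 at P6 and of 0.325, 0.174, 0.0581, 0.336 and 0.261 at P30, at least 4.75-fold higher at P6 with the ages apart. Its close relative Slc38a1 was 3.05-fold higher at P30, also with the ages apart (but under 3-fold without P6 replicate 1, 4 or 5 or P30 replicate 1 or 3, at -1.52 to -1.25 on the log2 scale), from 0.875 to 2.06 at P6 and from 2.27 to 9.46 at P30. With spike scaling the log2 difference of Slc38a1 was -1.33, also under 3-fold. Sfxn3, a sideroflexin related to the mitochondrial serine carrier Sfxn1, was at least 4.54-fold higher at P30 with widely overlapping cells, and with a floor of 0.1 its log2 difference shrank from -2.18 to -1.07. It was under 3-fold without P6 replicate 2 (-1.26) or 5 (-1.34) or P30 replicate 1 (-1.24) or 3 (-1.41), and -3.17 to -3.13 without P6 replicate 1 or 3 or P30 replicate 4. Slc7a10, the exchanger that moves D-serine and glycine, had ratios of 0.993, 0.155, 1.58, 1.73 and 1 at P6 and of 2.97, 2.84, 2.56, 2.69 and 1.52 at P30, a difference of 1.54 toward P30 that was just under 3-fold. Slc6a9, the glial glycine transporter, differed by 0.18 toward P30 and Slc1a4, a neutral amino acid carrier for serine, by 0.50 toward P6.

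The list of ATF4 and amino acid response genes, which in other settings includes serine synthesis enzymes among its targets, had 3 of 12 genes past 3-fold toward P6 (against 9.39% of all genes) and 1 toward P30 (against 4.93%, Nfe2l2, 3.82-fold, named after its value was seen and under 3-fold without P6 replicate 5, at -1.51 on the log2 scale), with a median of 0.98. Asns, asparagine synthetase, had ratios of 0.355, 12.9, 0.449, 1 and 31.5 at P6 and of 0.279, 0.249, 0.157, 0.212 and 0.114 at P30, 12.0-fold higher at P6 with the ages apart. Its log2 difference of 3.58 was 2.64 without P6 replicate 5, the cell with the raised neuronal markers (their part was not tested), 2.96 without P6 replicate 2, and 4.26 and 4.17 without P6 replicates 1 and 3. Aldh18a1, an enzyme of proline synthesis, was at least 6.19-fold higher at P6, but its ages overlapped, since P30 replicate 4 (3.21) was above every P6 cell (highest 1.94). Its log2 difference of 2.63 was 3.82 without that cell and 1.68 with a floor of 0.1. Slc7a11, the cystine and glutamate exchanger, was 3.83-fold higher at P6, which rested on P6 replicate 2 (ratio 13.4), since the log2 difference was 0.92 without it. Atf4 itself, named after its value was seen, differed by 0.13 toward P6 with overlapping cells. Its difference was -0.02 with array medians and 0.41 with spike scaling. Of 3 measured partners of serine racemase none passed 3-fold, with a median of 0.10, and the largest difference was 1.23 for Golga3. Of 5 measured glycolysis enzymes around 3-phosphoglycerate none passed 3-fold, with a median of -0.04, and the largest difference was 0.91 toward P30 for Eno2, which is also a neuronal marker. Without P6 replicate 2 the log2 difference of Eno2 was -1.78, over 3-fold.

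**Figure D4:**
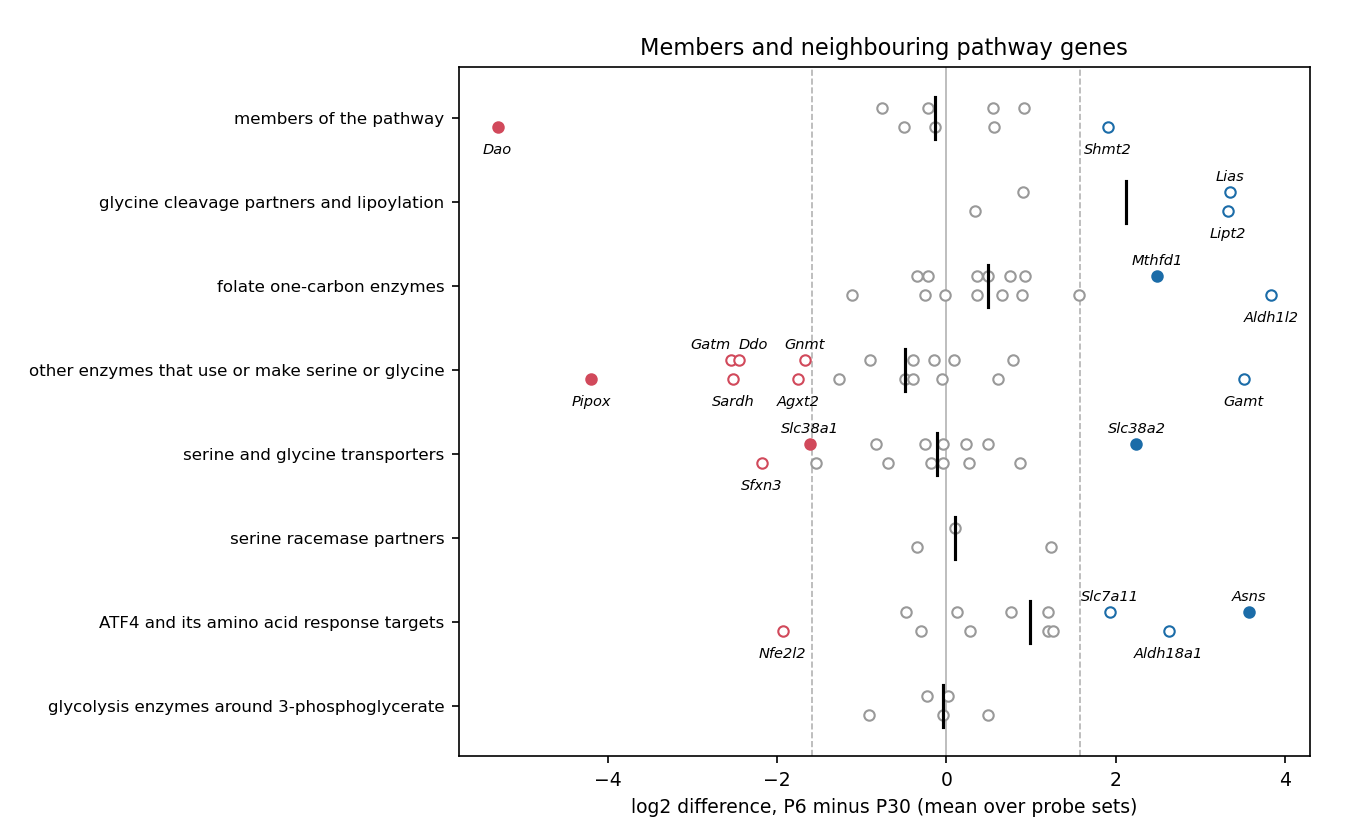
Difference of the mean log2 ratios, P6 minus P30 (x axis), of the 9 genes and of the genes of the 7 neighbouring lists (rows), coloured where over 3-fold (blue higher at P6, red higher at P30), filled where the cells of the ages do not overlap, with black bars for medians and dashed lines at 3-fold. Dao lies furthest toward P30 of all the genes shown, followed by Pipox, and the lipoylation genes Lias and Lipt2 lie toward P6.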

How the data were processed

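Gene expression in single Bergmann glia was measured on 10 arrays, 1 cell each. The deposited values are ratios that the authors made with RMA in GeneSpring GX 7.3: raw values were floored at 0.01, arrays were scaled to their median (the 50th percentile), and every probe set was then divided by its median, over all samples by the study's account. The values differ from that account. The median of the 5 P6 cells was 1 in 69.5% of complete probe sets (tolerance 0.0005) and that of all 10 cells in 1.66%. A median of 1 over all or some of the P6 cells was found in 99.98% and over all or some of the P30 cells in 0.885%, so the divisor was taken to be a median over P6 cells. Transcript levels and depth cannot be read from such ratios, and with 5 arrays per age the precision is low.

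Of 45101 probe sets, 43608 were complete over the 10 cells, and 10 values of 0 were set to 0.01 before log2 was taken. Probe sets were named from the platform annotation (34958 with 1 gene, 932 with several and 9211 with none), and 34754 of those with 1 gene were found in the RefSeq table by gene number. A gene was the mean log2 ratio of its probe sets. Differences are mean log2 at P6 minus mean log2 at P30, judged by a fold of 3 and by whether the cells of the ages overlap. The study's ANOVA took cells as replicates and was not repeated. Folds are lower bounds where values of the lower age stood at 0.01. The alternatives were scaling to array medians or to 18 hybridisation spike probe sets, a floor of 0.1, medians, arithmetic means, a fold of 2, leaving out floor values, leaving out probe sets ending in _x_at or _s_at, and leaving out cells. The calculation was tested on simulated data.

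The genes named are all 9 measured enzymes, of each neighbouring list up to 3 genes with the largest difference over 3-fold (the largest where none passed), the neighbours Dld, Slc6a9, Slc7a10, Slc1a4, Cbs and Aldh1l1, and the 3 genes most like the extreme probe sets. Members and lists were chosen with earlier results of these data known. All steps ran in Python 3.11.15 with pandas 2.3.3 and NumPy 2.4.6, and plots were drawn with Matplotlib 3.10.9.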

Additional observations from a re-analysis of the deposited data

Results flagged for a closer look

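In 19 of 100 groups of 5 cells 1 cell lay far from the other 4. Chance gives about 5% only for independent and normally distributed values. The groups of 1 gene's probe sets are not independent, and gene means stood beside their own probe sets. Some neighbouring genes were picked for large differences. No excess over chance can therefore be read from the 19. P30 replicate 5 accounted for 6 of the 19 and P6 replicate 2 for 5. All values here are log2 ratios, and their causes were not tested.

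P30 replicate 5 was lowest of its age in the Phgdh mean (-2.02) and in 3 of the Phgdh probe sets, 1426658_x_at (-2.87), 1437621_x_at (-1.69) and 1454714_x_at (-1.56). The same cell was lowest in Srr 1458393_at (-1.16) and in Slc7a10 (0.60).

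P6 replicate 2 was lowest of its age in Shmt2 1455084_x_at (-5.32) and 1455985_x_at (-5.16) and in Slc7a10 (-2.69). It was highest in Slc7a11 (3.74) and Mthfd1 (1.57).

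P6 replicate 5 was highest of its age in Shmt1 1425179_at (6.93) and 1425178_s_at (0.93) and lowest in Aldh1l1 (-1.86). P6 replicate 3 was lowest in Shmt1 1422198_a_at (-2.15) and in Srr 1455045_at (-4.13). P30 replicate 1 was lowest in Shmt1 1425179_at (-0.83) and highest in Lias (1.16), and P30 replicate 4 was highest in Aldh18a1 (1.68).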

How the results depend on the processing

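No difference past 3-fold changed sign under the alternatives run for it, which for the neighbouring genes were both scalings, a floor of 0.1 and leaving out 1 cell. Of 160 gene values under an alternative none moved by more than 1 SD between cells, and of 419 probe set values 2 did, Shmt1 1425179_at with arithmetic means (log2 difference 3.29) and Srr 1455045_at with medians (5.03). Most of this outcome was fixed in advance. Leaving out 1 of 5 cells cannot move a difference by 1 SD. Both scalings moved every difference by less than the smallest SD of a member (0.35, Psph). Shmt2 went from 1.91 to 3.15 with medians and still counted as not moved. The number of probe sets over 3-fold toward P6, 4 as reported, was 1 with a floor of 0.1 and 2 without _x_at and _s_at probe sets, and ran from 2 (without P30 replicate 4, where 1455045_at of Srr and 1455985_x_at of Shmt2 were left) to 5 with 1 cell left out. The number toward P30, 2 as reported, was 4 with medians, 4 over 2-fold and 1 without _x_at and _s_at probe sets, which drops Dao, and ran from 2 to 4 with 1 cell left out (4 without P6 replicate 4 or P30 replicate 4, by Srr probe sets). Ages that did not overlap, in 1 probe set as reported, were found in 3 with spike scaling (adding Psph and 1454714_x_at of Phgdh, higher at P6), in 0 without _x_at and _s_at probe sets, and in 1 to 2 with 1 cell left out (2 without P6 replicate 4, P30 replicate 1 or P30 replicate 2). The median difference of the 24 probe sets was 0.55 with spike scaling and -0.23 without _x_at and _s_at probe sets, and that of the neighbouring genes -0.10 with array medians and 0.33 with spike scaling. Spike scaling turned the sign of Psat1 (0.06) and of the list medians of transporters (0.17) and glycolysis enzymes (0.23), array medians that of racemase partners (-0.06), and Srr kept its sign in 12 of 18 alternatives. Scaling moved all differences by -0.16 (array medians) or 0.28 (spikes) and the shares of all probe sets over 3-fold toward P6 and P30 to 9.58% and 8.05%, or 14.6% and 4.61%. With some single cell left out, Shmt2 (1.42 to 2.82), Slc7a11, Slc38a1, Sfxn3, Gnmt, Agxt2 and Nfe2l2 fell under 3-fold. Slc7a10, Eno2 and some neighbouring genes not named above passed 3-fold with some single cell left out. With spike scaling Agxt2, Gnmt and Slc38a1 also fell under it. No paired analysis was possible because the replicate numbers only name cells and tie no P6 cell to a P30 cell by animal or batch. The causes of these changes were not tested, beyond the probe sets that each setting leaves out.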
